A study of Sus scrofa with 8 samples.

Results

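The genes described here encode potassium, sodium and chloride channels in the back muscle longissimus dorsi of young pigs. They were chosen by name from the gene table: every gene whose symbol begins with KCN, with SCN followed by a digit, or with CLCN, leaving out the KCNIP and KCTD genes. This gave 85 of the 23235 genes. Of these, 32 had a mean of at least 0.5 FPKM (fragments scaled by transcript length and by library size) over the 8 libraries and were tested between groups, and 53 lay below that level. Just inside the minimum were KCNE1 at 0.566, CLCN2 at 0.575 and KCNMB4 at 0.581 FPKM, and just outside were KCNK4 at 0.489, KCNQ1 at 0.393 and SCN2B at 0.317 FPKM. The animals were Duroc x Landrace x Yorkshire piglets aged 28 days, with 6 per group in the study. After 5 days of adaptation, controls received 10 mL of saline by gavage each day for 23 days. The other group received melatonin, the hormone of the pineal gland, at 5 mg per kg body weight on the same schedule. Poly(A) RNA was sequenced in 4 control and 4 melatonin libraries, and no genetic change was part of the design.

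As background, a skeletal muscle fibre fires when its sodium channels open, and the action potential runs along the surface and into the transverse tubules. Potassium channels of the voltage-gated family end the spike, inward rectifiers hold the resting potential, and the chloride conductance of ClC-1 damps excitability between spikes. ATP-sensitive potassium channels (KATP channels) open when the fibre runs short of energy, and calcium-activated potassium channels open when cytosolic calcium rises. Inherited faults in SCN4A, CLCN1 and KCNJ2 cause the muscle channelopathies: myotonia, in which relaxation is delayed, and periodic paralysis, in which the fibre becomes inexcitable.

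Total counts per library ran from 53471667 to 60629098. The labels give only a group and a replicate number for each library, so p-values measure the spread between these samples, which may be technical. Markers of the whole muscle fibre summed to between 60417 and 88416 FPKM in each library, with 4 of 4 genes present. Melatonin replicates 1 and 3 stood apart from the other 6 libraries in connective tissue genes. The summed level of 6 tendon markers, of which SCX lay below 0.5 FPKM on average, was 953 and 380 FPKM in those 2 libraries and 15.9 to 31.6 FPKM in the other 6. For 7 fibroblast markers the sums were 8470 and 2532 FPKM against 483 to 945 FPKM. Most of this was COL1A1, at 3457 and 913 FPKM, and COL1A2, at 3550 and 908 FPKM. In melatonin replicate 3, COL3A1 and LUM lay inside the control range, and DCN, PDGFRA and DPT lay above it. In melatonin replicates 1 and 3 the whole-fibre sums were the lowest, at 65573 and 60417 FPKM. ACTA1 made up most of these sums, and CKM was also lowest there. CACNA1S was lowest in control replicate 1, at 79.3 FPKM against 99.8 and 89.5 FPKM. In bulk tissue, fewer cells of a type and less RNA per cell cannot be told apart. Values per library are listed below in the order of replicates 1 to 4. Most results that rest on melatonin replicates 1 and 3 are given with and without them. The edgeR fold changes below use TMM factors, which correct for library composition and which FPKM does not carry. Libraries ranked in FPKM can therefore stand in another order in TMM-scaled CPM (counts scaled to library size with these factors).

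The sodium channel SCN4A, the chloride channel CLCN1, the potassium channel KCNA7 and the KATP channel pore KCNJ11 were among the most abundant of the channel genes. The plot of expressed channel genes by role shows their levels in every library. After melatonin, 0 of the 32 expressed channel genes passed an adjusted p under 0.05 in edgeR's quasi-likelihood test with Benjamini-Hochberg adjustment, and 0 of all 11530 genes tested (0%) did. The smallest adjusted p was 0.432 among the channel genes and among all genes. In DESeq2, KCNMB4 alone of the 32 had an adjusted p under 0.05 (0.0453, higher after melatonin), beside 81 of 11530 genes (0.703%). KCNMB4 passed the expression minimum only through the melatonin group, with a control mean of 0.127 FPKM. Without melatonin replicates 1 and 3 its log2 fold change in edgeR was 0.53 (unadjusted p = 0.345). At an unadjusted p under 0.05, 3 of the 32 (9.38%) were found in edgeR: KCNMB4 was higher, KCNK7 and KCNC1 were lower. The same threshold took 10.5% of all genes tested, 6.7% higher and 3.82% lower, so the channel genes' share lay near the background.

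**Figure D1:**
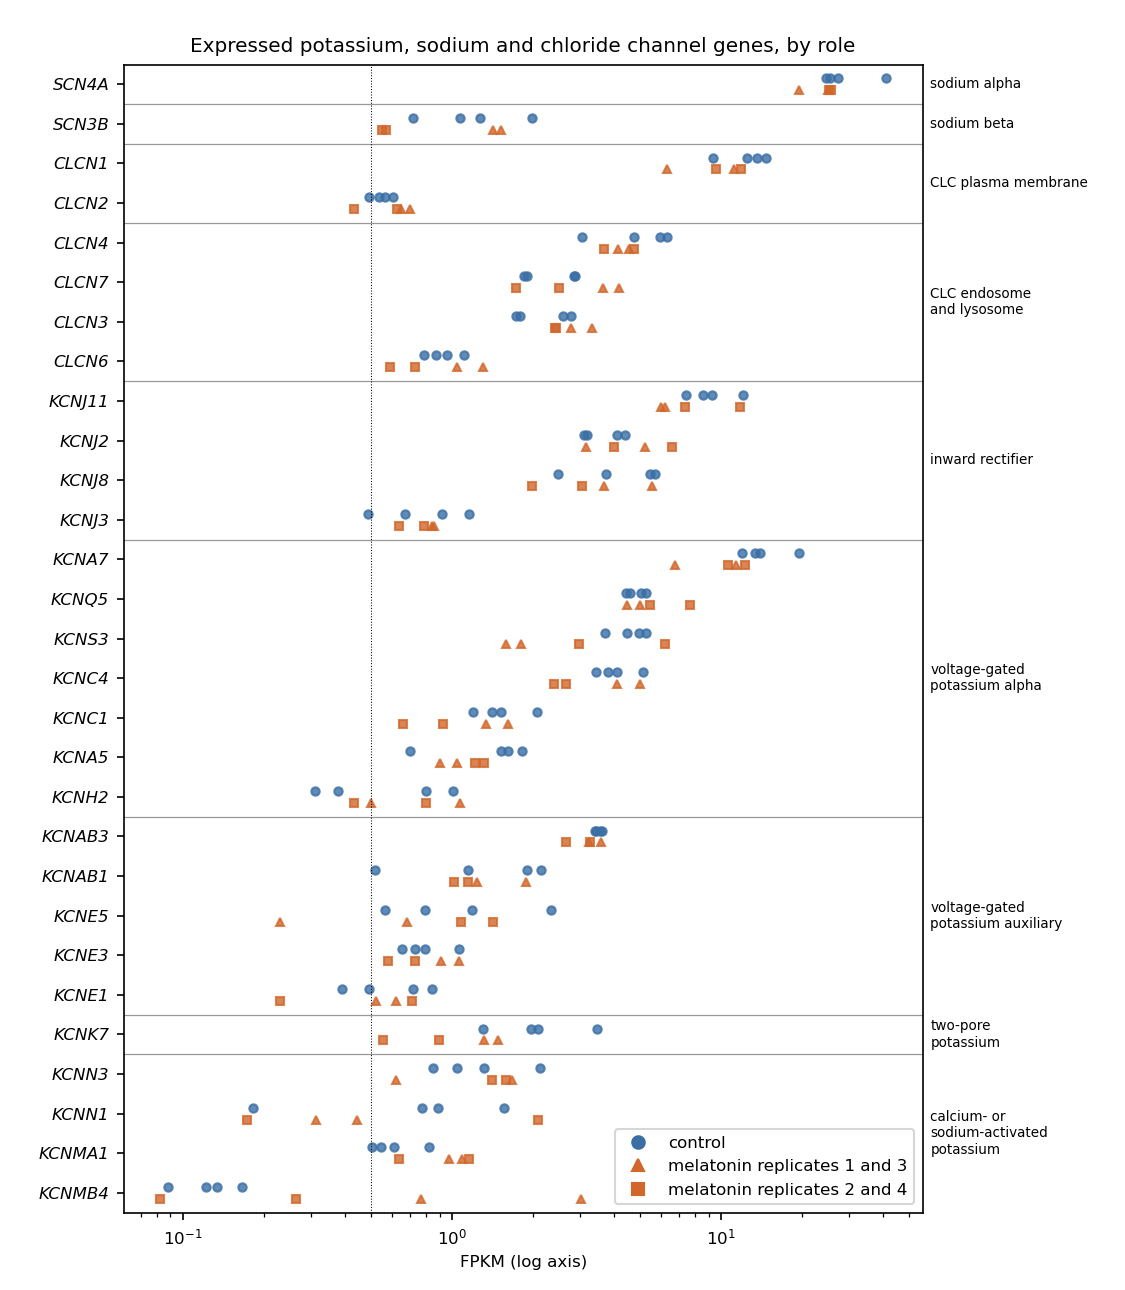
FPKM of 29 of the expressed channel genes on a log axis, grouped by role; each point is 1 library, with controls as blue circles, melatonin replicates 1 and 3 as orange triangles and melatonin replicates 2 and 4 as orange squares, and a dotted line at 0.5 FPKM. SCN4A lies highest of those drawn, the genes overlap between the groups, and KCNMB4 is spread widest, with its 2 triangles at 0.767 and 3.03 FPKM.

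Most of the fold changes were small and below 0. Of the 32 genes, 24 (75%) had a log2 fold change below 0, with a median of -0.29, while 49.9% of all genes tested did, with a median of 0.00. On log2(FPKM + 1) in limma, 23 of the 32 were below 0 against 37.3% of all genes. Without melatonin replicates 1 and 3 the count was 20 of 32, with a median of -0.08 against -0.02 for all genes. The groups overlapped in FPKM for each of the 32 genes. Of all genes, 1.3% lay wholly higher and 1.08% wholly lower after melatonin, so 0 of 32 lay near the background. The number of channel genes at an unadjusted p under 0.05 depended on the libraries used. It was 10 without melatonin replicate 4 (19.1% of all genes), 6 without melatonin replicates 1 and 3 (4.89%), and 5 each without control replicate 3 (8.65%) and without control replicate 4 (9.94%). Without each of the other libraries in turn it was 2 to 4 (6.02 to 8.9% of all genes), and the adjusted count was 0 each time.

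**Figure D2:**
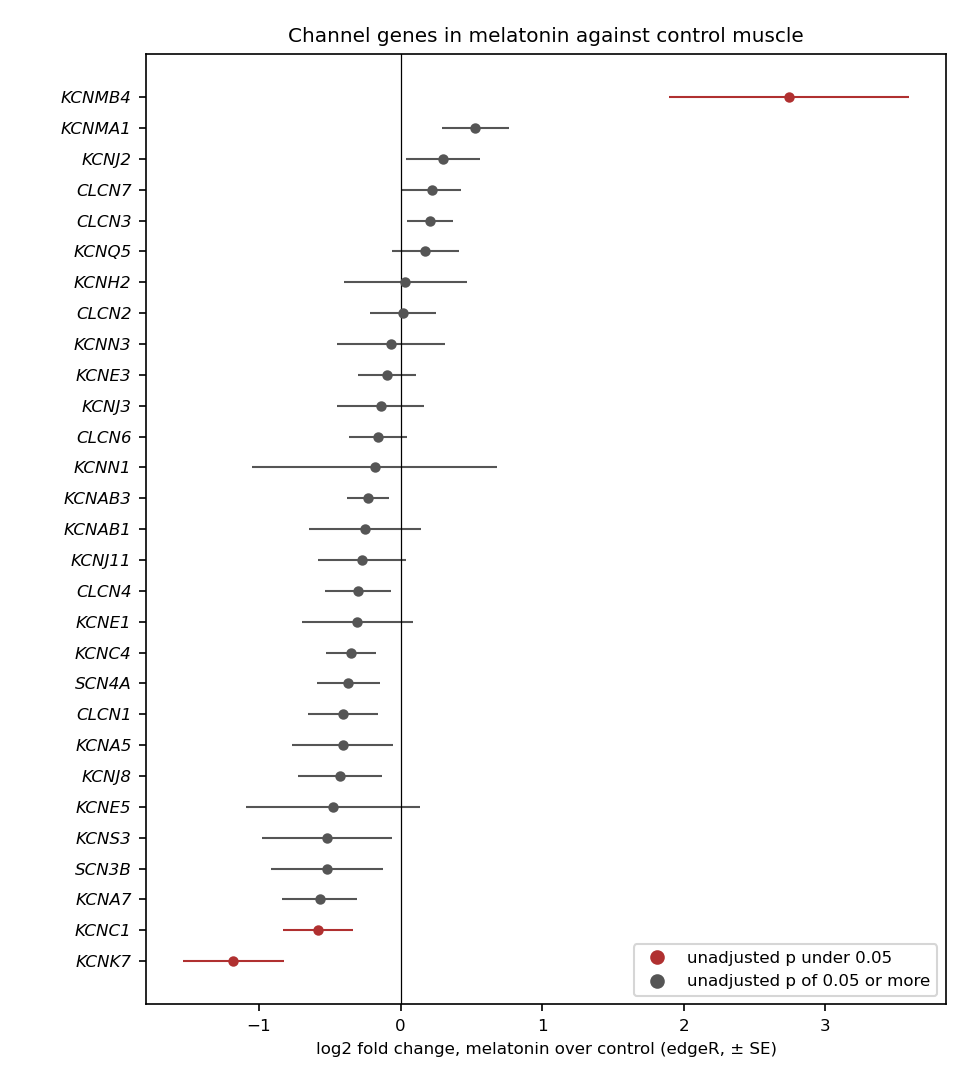
Log2 fold change of melatonin over control for 29 of the expressed channel genes, with bars of ± 1 standard error from edgeR; red marks an unadjusted p under 0.05. KCNMB4 at 2.75 and KCNK7 at -1.18 lie farthest from 0, and 21 of the 29 points lie left of the line.

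Among sodium channel pores a single gene made up nearly all of the measured level. SCN4A (ENSSSCG00000017282, chromosome 12, 15002175 to 15047582 in Sscrofa11.1, the build of every position given here) encodes Nav1.4, the sodium channel of adult muscle, and it made up 97.7 to 99.2% of the summed FPKM of the 9 pore genes in each library. Its level was 24.5, 25.4, 27.3 and 41.1 FPKM in controls and 19.6, 25.7, 24.9 and 25.1 FPKM after melatonin. In FPKM, control replicate 4 was high and melatonin replicate 1 low, and the other 6 libraries lay between 24.5 and 27.3 FPKM, so the groups overlapped. In TMM-scaled CPM SCN4A was at 166, 208, 188 and 280 in controls and 114, 193, 145 and 201 after melatonin. On that scale melatonin replicates 1 and 3 lay below every control, and the groups overlapped through replicates 2 and 4. The means were 29.6 ± 7.77 and 23.8 ± 2.87 FPKM (SD, n = 4 each). On the log2 scale the change was -0.37 ± 0.22 (SE), with an unadjusted p of 0.133 in edgeR's quasi-likelihood test (adjusted p = 0.565). With each library left out it ran from -0.49 to -0.20, nearest to 0 without control replicate 4, and without melatonin replicates 1 and 3 it was -0.10.

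SCN3B (ENSSSCG00000053283, chromosome 9, 50508880 to 50583712), a beta subunit that modulates sodium channel gating, was measured at 0.715, 1.98, 1.07 and 1.27 FPKM in controls and 1.52, 0.57, 1.42 and 0.548 FPKM after melatonin. Melatonin replicates 1 and 3 lay inside the control range, and replicates 2 and 4 lay below it. Between groups its log2 fold change was -0.52 ± 0.39 (SE; unadjusted p = 0.216) with all libraries and -1.10 (unadjusted p = 0.0431) without replicates 1 and 3. Without control replicate 2 alone it was -0.11 (unadjusted p = 0.769).

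**Figure D3:**
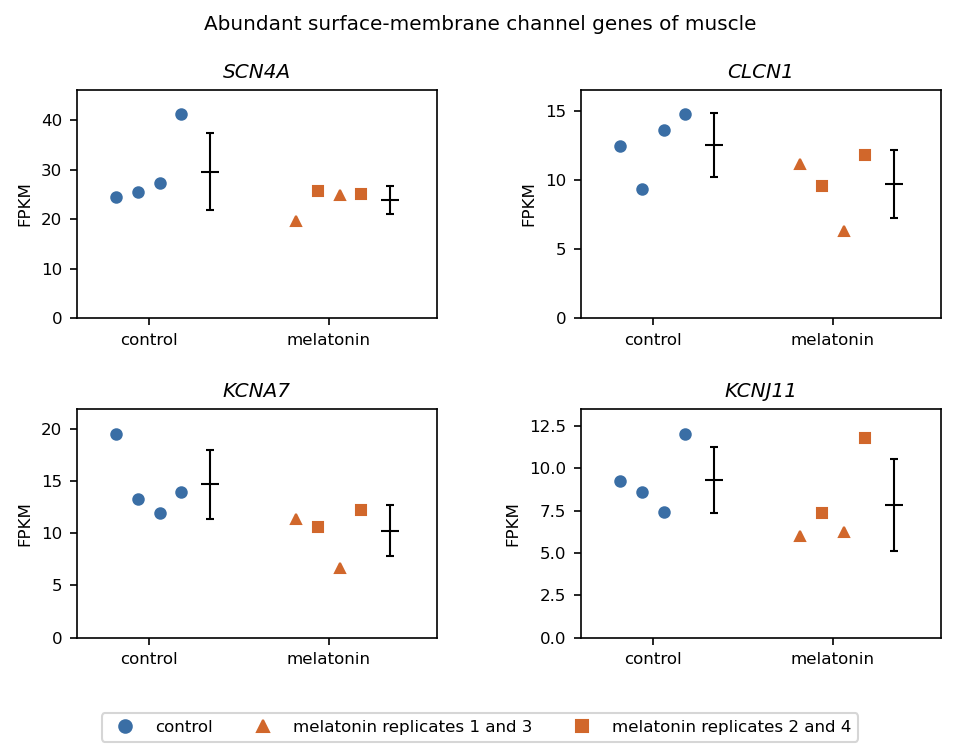
FPKM of SCN4A, CLCN1, KCNA7 and KCNJ11 in each library, with the mean ± SD of each group of 4 as a black bar beside the points. The melatonin mean is lower than the control mean in each of the 4 panels and the points of the groups overlap in each.

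Chloride channels of the CLC family fell into a surface pair and an intracellular group. CLCN1 (ENSSSCG00000056050, chromosome 18, 6902542 to 6940449) encodes ClC-1, the resting chloride conductance of muscle, and held 90.7 to 96.8% of the FPKM of the surface pair. Its levels were 12.5, 9.36, 13.6 and 14.8 FPKM in controls and 11.2, 9.60, 6.30 and 11.9 FPKM after melatonin. In FPKM, melatonin replicate 3 was the lowest library, control replicate 2 lay below 3 of the 4 melatonin libraries, and the groups overlapped. In TMM-scaled CPM, melatonin replicates 1, 2 and 3, at 47.4, 52.5 and 26.9, lay below every control, at 56.0 or more. Melatonin replicate 4, at 69.2, lay among the controls on that scale. Means were 12.6 ± 2.32 and 9.73 ± 2.47 FPKM (SD, n = 4 each), for a log2 fold change of -0.41 ± 0.25 (SE; edgeR unadjusted p = 0.133, adjusted p = 0.565). Without melatonin replicate 4 it was -0.62 (unadjusted p = 0.0243), without replicate 3 it was -0.20 (unadjusted p = 0.282), and without replicates 1 and 3 it was -0.10. CLCN2 (ENSSSCG00000021581, chromosome 13, 122234736 to 122249867), a widely expressed channel opened by hyperpolarisation, stayed between 0.434 and 0.700 FPKM in all libraries. Its log2 fold change was 0.02 ± 0.23 (SE), and with upper-quartile scaling it fell just below 0. It overlaps FAM131A on the opposite strand, which averaged 4.24 FPKM. As the strand setting of the counting is not given in the sources used here, reads of the pair may not be told apart.

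The intracellular CLC proteins exchange chloride for protons in endosomes and lysosomes, and 4 of their 5 genes were expressed. CLCN4 (ENSSSCG00000024809, chromosome X, 6939387 to 7019738), an endosomal exchanger, was measured at 6.28, 4.74, 5.95 and 3.05 FPKM in controls and 4.15, 3.69, 4.57 and 4.74 FPKM after melatonin. Every melatonin value lay inside the control range, which control replicate 4 opened at its lower end. The log2 fold change was -0.30 ± 0.24 (SE; edgeR unadjusted p = 0.231). It was -0.49 (unadjusted p = 0.0186) without control replicate 4 and -0.20 (unadjusted p = 0.448) without control replicate 1. CLCN7 (ENSSSCG00000008024, chromosome 3, 40399639 to 40420957) encodes the lysosomal exchanger ClC-7. Its values were 2.86, 1.89, 2.85 and 1.85 FPKM in controls and 3.63, 2.50, 4.20 and 1.73 FPKM after melatonin. The 2 highest libraries were melatonin replicates 1 and 3, those high in connective tissue markers, and the part of those cells in the difference was not tested. With all libraries the log2 fold change of CLCN7 was 0.22 ± 0.21 (SE; unadjusted p = 0.319 in edgeR), and without those 2 it was -0.05. CLCN3 and CLCN6, at means of 2.48 and 0.925 FPKM, had log2 fold changes of 0.21 and -0.16. CLCN3 overlaps HPF1 on the opposite strand, which averaged 3.525 FPKM, so the limit given for CLCN2 also holds for CLCN3.

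Inward rectifier potassium channels pass current more readily into the cell than out of it, and 4 of 10 genes were expressed. KCNJ11 (ENSSSCG00000042162, chromosome 2, 41757356 to 41765555), the pore of the KATP channel in muscle fibres, led with 9.23, 8.61, 7.41 and 12.0 FPKM in controls and 5.97, 7.38, 6.22 and 11.8 FPKM after melatonin. In FPKM, melatonin replicate 4 sat with the highest control, while the other 3 melatonin libraries lay below every control. In TMM-scaled CPM, melatonin replicate 2, at 68.7, lay above control replicate 3, at 63.3. Group means were 9.32 ± 1.96 and 7.84 ± 2.71 FPKM (SD, n = 4 each), and the log2 fold change was -0.27 ± 0.31 (SE; unadjusted p = 0.402, adjusted p = 0.758 in edgeR). It was -0.67 (unadjusted p = 0.0156) without melatonin replicate 4 and 0.16 without melatonin replicates 1 and 3, so its direction depended on which libraries were kept. KCNJ2 (ENSSSCG00000039947, chromosome 12, 10351699 to 10362244) encodes Kir2.1, which sets the resting potential. Levels were 4.41, 3.19, 4.12 and 3.09 FPKM in controls and 3.15, 6.57, 5.23 and 3.996 FPKM after melatonin. In FPKM, melatonin replicates 2 and 3 lay above every control and replicate 1 near the lowest. In TMM-scaled CPM, melatonin replicates 2, 3 and 4, at 41.9, 26.0 and 27.2, lay above every control, at up to 25.5. Melatonin replicate 1, at 15.6, was the lowest library on that scale. Between groups its log2 fold change was 0.30 ± 0.26 (SE; unadjusted p = 0.275) with all libraries, 0.50 (unadjusted p = 0.0347) without melatonin replicate 1 and 0.62 (unadjusted p = 0.0201) without replicates 1 and 3. Without melatonin replicate 2, the highest library, it was 0.03 (unadjusted p = 0.888). The other expressed members were KCNJ8, the KATP pore of blood vessels, and KCNJ3, a pore opened by G proteins. Their log2 fold changes were -0.42 ± 0.30 and -0.14 ± 0.31 (SE).

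Voltage-gated potassium channels open on depolarisation and repolarise the membrane. They were the largest role group, with 30 pore genes of which 9 were expressed. In 7 of the 9 the log2 fold change was below 0 and in 2, KCNQ5 and KCNH2, above, with a median of -0.41. KCNA7 (ENSSSCG00000003159, chromosome 6, 54278887 to 54282209), a Shaker-family channel found mainly in muscle and heart, was the most abundant. It was measured at 19.6, 13.3, 11.9 and 14.00 FPKM in controls and 11.3, 10.7, 6.72 and 12.3 FPKM after melatonin. Of the 4 melatonin libraries 3 lay below every control, and replicate 4 overlapped with the lowest control. Mean levels were 14.7 ± 3.35 and 10.3 ± 2.45 FPKM (SD, n = 4 each). On the log2 scale the change was -0.57 ± 0.26 (SE), at an unadjusted p of 0.0575 and an adjusted p of 0.483 in edgeR. The unadjusted p was 0.0461 in DESeq2. In edgeR it was 0.0156 without melatonin replicate 4 (log2 fold change -0.77) and 0.0432 without control replicate 3 (-0.67). Without melatonin replicate 3 the change was -0.37 (unadjusted p = 0.111), and without melatonin replicates 1 and 3 the change was -0.24.

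KCNQ5 (ENSSSCG00000004281, chromosome 1, 52435235 to 52939823), a slowly opening channel of the M-current family, was measured at 4.42, 4.60, 5.25 and 5.04 FPKM in controls and 4.46, 7.66, 5.00 and 5.44 FPKM after melatonin. Melatonin replicate 2 was the highest, and the other 7 libraries lay between 4.42 and 5.44 FPKM. In TMM-scaled CPM the controls lay between 29.9 and 37.5, and the melatonin libraries were at 25.7, 57.1, 29.0 and 43.2. On that scale melatonin replicates 2 and 4 lay above every control, and replicates 1 and 3 lay below. Its log2 fold change was 0.17 ± 0.24 (SE; unadjusted p = 0.481). It was 0.54 (unadjusted p = 0.0131) without melatonin replicates 1 and 3 and -0.07 without melatonin replicate 2.

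The Shaw-type channels KCNC1 and KCNC4 close quickly and serve rapid repolarisation. In FPKM, both lay below every control in melatonin replicates 2 and 4, whose connective tissue marker sums were near those of the controls. KCNC1 (ENSSSCG00000013374, chromosome 2, 41362347 to 41408127) was measured at 2.06, 1.41, 1.53 and 1.20 FPKM in controls and 1.34, 0.656, 1.61 and 0.924 FPKM after melatonin. Replicates 2 and 4 of the melatonin group lay below every control in FPKM, and replicates 1 and 3 lay inside the control range. In TMM-scaled CPM, melatonin replicate 1, at 4.26, also lay below every control, at 4.48 or more. Replicates 2 and 4 were at 2.71 and 4.05 on that scale, and replicate 3, at 5.15, lay inside the control range. Means were 1.55 ± 0.370 and 1.13 ± 0.424 FPKM (SD, n = 4 each). On the log2 scale the change was -0.58 ± 0.25 (SE; unadjusted p = 0.0408, adjusted p = 0.462 in edgeR). With 1 library left out the unadjusted p ran from 0.0207 to 0.127 and was under 0.05 in 2 of 8 cases, without control replicate 4 and without melatonin replicate 3, while the change ran from -0.72 to -0.43. Without melatonin replicates 1 and 3 together the change was -0.85 (unadjusted p = 0.0211). KCNC4 (ENSSSCG00000006810, chromosome 4, 109885116 to 109908476) was measured at 4.10, 3.80, 3.43 and 5.13 FPKM in controls and 4.12, 2.64, 5.02 and 2.39 FPKM after melatonin. The same melatonin libraries, 2 and 4, lay below every control. Between groups its log2 fold change was -0.35 ± 0.18 (SE; unadjusted p = 0.0771, adjusted p = 0.513 in edgeR) with all libraries and -0.60 (unadjusted p = 0.0132) without melatonin replicates 1 and 3. With each library left out it ran from -0.48 to -0.26, with an unadjusted p of 0.0224 to 0.197.

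KCNS3, a subunit that forms no channel alone and joins other voltage-gated subunits, is named after its values were seen. Its levels were 5.26, 3.72, 4.46 and 4.95 FPKM in controls and 1.59, 2.96, 1.80 and 6.18 FPKM after melatonin. Melatonin replicates 1, 2 and 3 lay below every control and replicate 4 above, and the log2 fold change was -0.52 ± 0.46 (SE). Replicates 1 and 3 were the lowest libraries, and the fold change without them is not given. The pore genes KCNA5 and KCNH2 had log2 fold changes of -0.41 and 0.04.

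Auxiliary subunits of the voltage-gated potassium channels change gating or surface delivery without forming a pore. Of 7 genes 5 were expressed, and all 5 had a log2 fold change below 0, between -0.48 and -0.10. KCNAB3 (ENSSSCG00000037973, chromosome 12, 53171319 to 53180823), a cytoplasmic beta subunit, was the steadiest of the 32 genes in FPKM, with 1.36 times as much in the highest as in the lowest library. It was measured at 3.39, 3.62, 3.43 and 3.55 FPKM in controls and 3.24, 2.66, 3.57 and 3.26 FPKM after melatonin. In FPKM, the controls lay within a narrow band, and melatonin replicate 3 reached into it. In TMM-scaled CPM the controls were at 18.7, 24.0, 19.2 and 19.6, and the melatonin libraries at 15.3, 16.2, 16.9 and 21.1. On that scale melatonin replicates 1, 2 and 3 lay below every control, and replicate 4 lay inside the control range. Means were 3.50 ± 0.104 and 3.18 ± 0.379 FPKM (SD, n = 4 each), and the log2 fold change was -0.23 ± 0.15 (SE; unadjusted p = 0.153, adjusted p = 0.586 in edgeR). It was -0.14 (unadjusted p = 0.397) without control replicate 2 and -0.34 (unadjusted p = 0.0389) without melatonin replicate 4. KCNAB1 (ENSSSCG00000025810, chromosome 13, 95959378 to 96375856), another beta subunit, ranged from 0.517 to 2.15 FPKM in controls and from 1.01 to 1.88 FPKM after melatonin. Its log2 fold change was -0.25 ± 0.40 (SE), and its sign changed in limma on log2(FPKM + 0.1). KCNE3 (ENSSSCG00000029323, chromosome 9, 8810720 to 8822494) encodes MiRP2, a single-pass subunit described with muscle Kv3.4, the product of KCNC4. It ranged from 0.653 to 1.06 FPKM in controls and from 0.579 to 1.06 FPKM after melatonin. KCNE3 had a log2 fold change of -0.10 ± 0.21 (SE) in edgeR and of 0.01 on both limma scales.

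Tandem-pore-domain channels (the K2P family) carry background potassium current. Of their 10 genes only KCNK7 reached the expression minimum, and of the 32 expressed genes it had the smallest unadjusted p. KCNK7 (ENSSSCG00000012986, chromosome 2, 6659054 to 6661980) encodes a family member for which no current of its own has been established. Levels were 1.97, 2.10, 1.30 and 3.47 FPKM in controls and 1.49, 0.555, 1.32 and 0.895 FPKM after melatonin. Behind these lay 137, 155, 90 and 262 counts in controls and 104, 43, 94 and 70 counts after melatonin. Control replicate 3 lay below melatonin replicates 1 and 3 in FPKM, so the groups overlapped on that scale. The deposited FPKM values do not carry the TMM factors (scaling factors that correct for library composition, 0.846 to 1.20 here). In CPM (counts scaled to library size) with these factors applied, KCNK7 was at 2.51, 3.20, 1.67 and 4.40 in controls and 1.62, 0.786, 1.44 and 1.34 after melatonin. On this scale the groups did not overlap, which held for 1 of the 32 channel genes and for 4.37% of all genes tested (2.06% lower after melatonin).

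Mean KCNK7 levels were 2.21 ± 0.907 and 1.06 ± 0.421 FPKM (SD, n = 4 each). On the log2 scale the change was -1.18 ± 0.36 (SE), with an unadjusted p of 0.00796 and an adjusted p of 0.432 in edgeR's quasi-likelihood test, and the adjusted p was 0.0932 in DESeq2. With each library left out in turn the log2 fold change ran from -1.38 to -0.92, and the unadjusted p was under 0.05 in 8 of 8 cases. Without melatonin replicates 1 and 3 it was -1.47 (unadjusted p = 0.0135), so KCNK7 was also lower in the 2 melatonin libraries whose connective tissue markers resembled the controls.

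**Figure D4:**
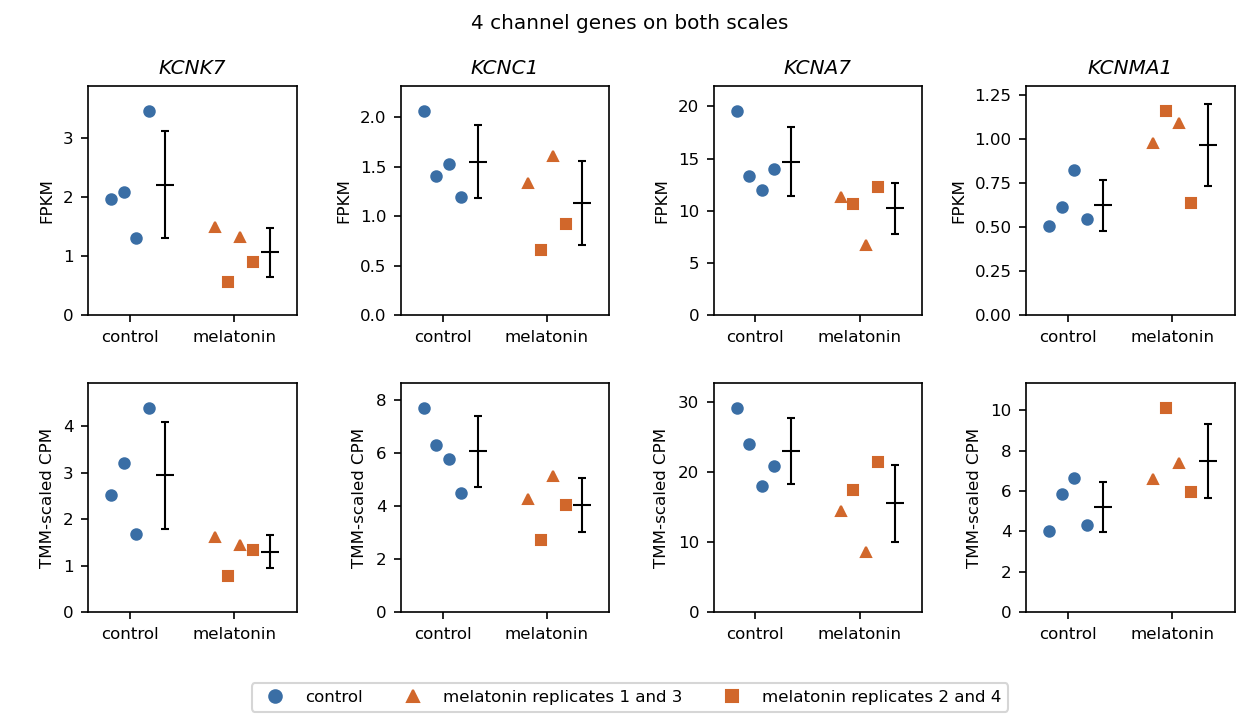
KCNK7, KCNC1, KCNA7 and KCNMA1 in each library as FPKM (upper panels) and as TMM-scaled CPM (lower panels), with the mean ± SD of each group as a black bar. For KCNK7 the melatonin points reach into the control range in FPKM and lie below it in TMM-scaled CPM, at up to 1.62 against at least 1.67; the other genes overlap on both scales.

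Calcium- and sodium-activated potassium channels were expressed at low levels, 4 of 8 genes. KCNMA1 (ENSSSCG00000010325, chromosome 14, 79352005 to 80106295) encodes the pore of the BK channel, which opens with calcium and voltage together. It was measured at 0.504, 0.612, 0.825 and 0.546 FPKM in controls and 0.974, 1.16, 1.09 and 0.636 FPKM after melatonin. Of the melatonin libraries 3 lay above every control in FPKM, and replicate 4 lay among the controls. In TMM-scaled CPM, melatonin replicate 1, at 6.58, also lay among the controls, just below control replicate 3, at 6.64. Means were 0.622 ± 0.143 and 0.964 ± 0.232 FPKM (SD, n = 4 each). The log2 fold change was 0.53 ± 0.24 (SE; unadjusted p = 0.0505, adjusted p = 0.473 in edgeR, unadjusted p = 0.0416 in DESeq2). It was 0.62 without melatonin replicate 4 (unadjusted p = 0.0326) and also 0.62 without replicates 1 and 3 (unadjusted p = 0.0704). Without melatonin replicate 2 it was 0.35 (unadjusted p = 0.167), and without control replicate 1 it was 0.42 (unadjusted p = 0.127). Smooth muscle, which is rich in BK channels, had marker sums of 70.6 to 123 FPKM in controls and 72.2 to 104 FPKM after melatonin. The part of smooth muscle cells in the KCNMA1 difference was not tested.

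KCNMB4 (ENSSSCG00000031173, chromosome 5, 34562052 to 34634237) encodes the beta4 subunit of the BK channel, known best from neurons. Levels were 0.166, 0.122, 0.088 and 0.134 FPKM in controls and 3.03, 0.262, 0.767 and 0.0823 FPKM after melatonin. These values came from 36, 28, 19 and 32 counts in controls and 653, 63, 170 and 20 counts after melatonin. In FPKM, melatonin replicates 1, 2 and 3 lay above every control and replicate 4 below, and the gene passed the expression minimum through replicate 1. In TMM-scaled CPM, melatonin replicate 4, at 0.384, lay inside the control range of 0.353 to 0.661. Means were 0.127 ± 0.0323 and 1.03 ± 1.36 FPKM (SD, n = 4 each). On the log2 scale the change was 2.75 ± 0.85 (SE), with an unadjusted p of 0.00906 and an adjusted p of 0.432 in edgeR, and the adjusted p was 0.0453 in DESeq2. In edgeR it was 1.38 (unadjusted p = 0.0387) without melatonin replicate 1, and 0.53 (unadjusted p = 0.345) without replicates 1 and 3. The 2 libraries with the highest KCNMB4 were those with tendon marker sums of 953 and 380 FPKM, and the part of tendon cells in the difference was not tested.

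The small-conductance channels KCNN3 and KCNN1, opened by calcium through calmodulin, differed little between group means. KCNN3 (ENSSSCG00000006542, chromosome 4, 94915965 to 95113275), known to reappear in denervated muscle, ranged from 0.852 to 2.13 FPKM in controls and from 0.619 to 1.67 FPKM after melatonin. Between groups its log2 fold change was -0.07 ± 0.38 (SE), and 0.27 without melatonin replicates 1 and 3. KCNN1 (ENSSSCG00000013892, chromosome 2, 59780013 to 59817059) was measured at 0.889, 1.56, 0.772 and 0.183 FPKM in controls and 0.314, 0.173, 0.444 and 2.09 FPKM after melatonin. Melatonin replicate 4 was the highest of all 8 libraries, and the other 3 melatonin libraries lay below 3 of the 4 controls. Its log2 fold change was -0.18 ± 0.86 (SE; unadjusted p = 0.838) with all libraries and -1.72 (unadjusted p = 0.0302) without melatonin replicate 4.

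The 53 channel genes below the minimum had their highest summed level in a single library. Their summed level was 3.53, 2.51, 3.76 and 4.07 FPKM in controls and 12.7, 3.03, 5.06 and 3.24 FPKM after melatonin. Melatonin replicate 1 held the highest value of 23 of the 53 (43.4%), against 27.9% of the 11705 genes of the whole table below the same level. Among the 32 expressed channel genes it held the highest value of 4 (12.5%), against 32.2% of all expressed genes. In that library 8 of the 53 genes reached 0.5 FPKM, and in each of the others at most 1 did. The following genes are named after their values were seen.

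The K2P gene KCNK4, whose product TRAAK opens on membrane stretch, was listed at 0, 0, 0.0908 and 0 FPKM in controls and 3.32, 0, 0.496 and 0 FPKM after melatonin. This rested on 365 and 56 counts in melatonin replicates 1 and 3, against 10 counts in control replicate 3 and 0 in the other 5 libraries. KCNK6, a background channel of the same family, was at 0.0139 to 0.0681 FPKM in controls and 0.981, 0.0202, 0.159 and 0.0656 FPKM after melatonin. KCNK1, likewise a K2P gene, was at 0 to 0.0496 FPKM in controls and 0.661, 0, 0.338 and 0.0265 FPKM after melatonin. Each of these 3 genes was highest in melatonin replicate 1 and next highest in replicate 3. The same order was found for KCNJ5, a G-protein-gated inward rectifier, at 0.593 and 0.0453 FPKM against at most 0.0248 FPKM in the other 6 libraries. It was also found for KCNK12, at 0.501 and 0.165 against at most 0.027 FPKM, and for KCNS1, at 0.378 and 0.148 against at most 0.102 FPKM. KCNH3 had 68 and 8 counts in those libraries and 0 in the other 6. As given above, the same 2 libraries held the highest tendon and fibroblast marker sums, and the part of those cells in these values was not tested.

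**Figure D5:**
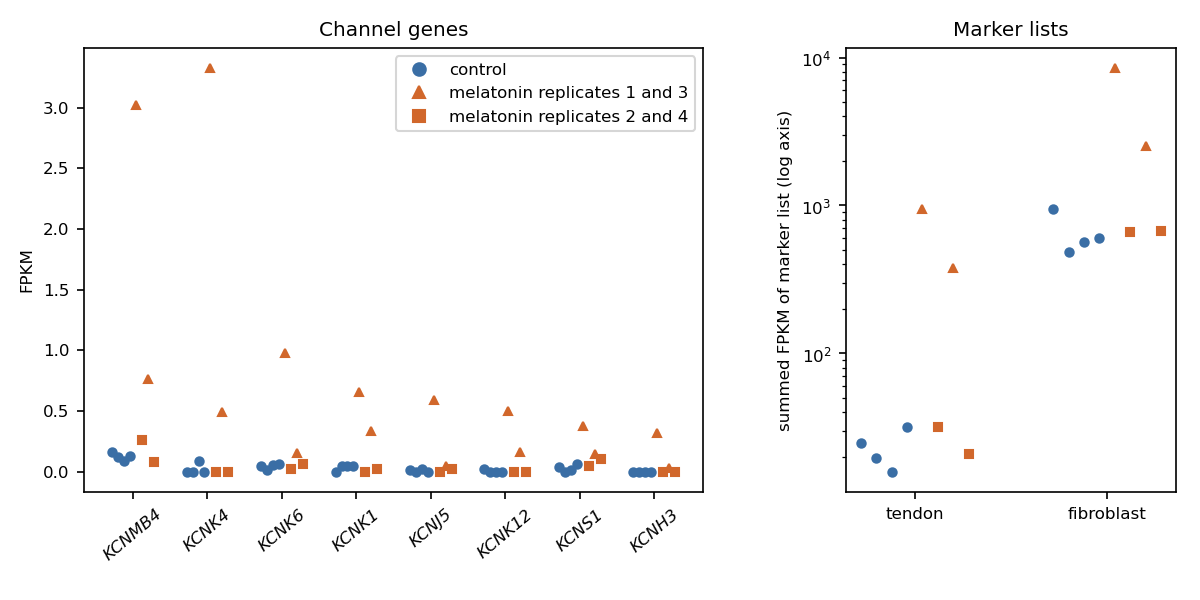
FPKM of KCNMB4 and 7 channel genes below the minimum in each library (left), beside the summed FPKM of tendon and fibroblast markers on a log axis (right); symbols mark controls, melatonin replicates 1 and 3, and melatonin replicates 2 and 4. The triangles are melatonin replicates 1 and 3, which lie highest in all 8 genes and in both marker sums, at 953 and 380 FPKM for tendon.

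With no expression filter, 12 of all 85 channel genes had an unadjusted p under 0.05 in edgeR (14.1%, against 7.7% of all 23235 genes) and 0 an adjusted p under 0.05. Of these, 7 lay below the minimum: KCNJ5, KCNK4, KCNK6, KCNK12, KCNS1, KCNH3 and KCNC2. Without melatonin replicate 1 there were 8 (9.41%, against 5.83%). Without melatonin replicates 1 and 3 there were 7 (8.24%, against 3.62%). They were KCNQ5, KCNC4, KCNK3, KCNK7, KCNC1, KCNJ2 and SCN3B. KCNK3 rested on 8 and 6 counts in melatonin replicates 2 and 4 and 0 in every control. The low genes just named were not among the 7, but their highest values lay in the libraries left out, so this fit cannot test them.

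Genes whose products work with these channels were taken as a list of 90, of which 72 were in the table and 48 were tested. In edgeR 0 of the 48 had an adjusted p under 0.05, and at an unadjusted p under 0.05 there was 1 higher and 1 lower (4.17%, beside 10.5% of all genes). The log2 fold change was above 0 in 29 and below 0 in 19, with a median of 0.08 beside 0.00 for all genes. The gene lower after melatonin was KCNIP2 (ENSSSCG00000010570, chromosome 14, 112857062 to 112876439), a calcium-binding subunit of Kv4 channels. It was measured at 1.74, 1.64, 2.13 and 3.13 FPKM in controls and 1.56, 0.529, 0.789 and 1.38 FPKM after melatonin. Each melatonin library lay below each control, which held in this direction for 1.08% of all genes. Means were 2.16 ± 0.677 and 1.06 ± 0.485 FPKM (SD, n = 4 each), and the log2 fold change was -1.10 ± 0.35 (SE; unadjusted p = 0.0114, adjusted p = 0.432 in edgeR). The unadjusted p was under 0.05 with each library left out in turn, in 8 of 8 cases, and the change was -1.04 without melatonin replicates 1 and 3.

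The partner gene higher after melatonin was CLIC4 (ENSSSCG00000038994, chromosome 6, 82401188 to 82483724), a chloride intracellular channel protein. Levels were 6.28, 5.17, 4.45 and 4.72 FPKM in controls and 11.3, 5.64, 12.3 and 4.68 FPKM after melatonin. Melatonin replicates 1 and 3 were about equally high, and replicates 2 and 4 lay inside the control range. On the log2 scale the change was 0.56 ± 0.23 (SE; unadjusted p = 0.0359, adjusted p = 0.459 in edgeR), and 0.11 (unadjusted p = 0.596) without replicates 1 and 3. With each library left out it ran from 0.40 to 0.70, and the unadjusted p was under 0.05 in 4 of 8 cases. By sub-list, genes of the sodium-potassium pump were above 0 in 4 of 5, and those of the muscle calcium channel in 1 of 5. Other chloride and anion channels were above 0 in 8 of 14, cation-chloride cotransporters in 4 of 5, channel anchors in 1 of 5, and kinases and ligases acting on channels in 3 of 4. The 3 tested splicing factors that act on CLCN1 were all above 0, with a median log2 fold change of 0.30. ABCC9, the tested receptor subunit of KATP channels, had a log2 fold change of 0.14.

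The spread between libraries was somewhat wider in the channel genes, by its median, than in all genes tested. The sets were not matched for expression level. A mean of at least 5 FPKM was reached by 7 of the 32 channel genes and by 4336 of the 11530 genes tested. The median ratio of the highest to the lowest library was 2.35 for the 32 expressed genes and 2.07 for all genes tested, and the median coefficient of variation was 29.4% against 25.3%. The widest were KCNMB4 at 36.8 times, KCNN1 at 12.1, KCNE5 at 10.1 and KCNK7 at 6.25. Several channel genes lie near another channel or partner gene in the genome, some of them at very unequal levels. KCNJ11 averaged 8.58 FPKM, while ABCC8, which lies 2.7 kb away and encodes the pancreatic and neuronal receptor subunit of KATP channels, averaged 0.157 FPKM. KCNJ8 and ABCC9, which together form the vascular KATP channel, lie 4.6 kb apart on chromosome 5 and averaged 3.95 and 5.48 FPKM. KCNJ2 averaged 4.22 FPKM and its neighbour KCNJ16, 30.9 kb away, 0.084 FPKM. On chromosome 4 KCNC4 averaged 3.83 FPKM. The Shaker-family gene KCNA2, 324.1 kb away, averaged 0.003 FPKM, and KCNA3, 60.9 kb from KCNA2, averaged 0.054 FPKM.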

How the data were processed

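Poly(A) RNA of 4 control and 4 melatonin libraries was sequenced as paired ends, with strand marked by dUTP, per the labels' protocols. The authors deposited 1 gene table with 2 columns per library, per the file headers: FPKM, scaled by the authors for gene length and library size, and the count. The deposited counts are not normalized. The submitters' processing notes name FastQC, StringTie, DESeq2 and Sscrofa11.1, with no role; for the aligner, annotation and strand setting, the sources used here give nothing. All columns were mapped to libraries by group and number, with 0 left over. No 2 libraries were duplicates, since chi-square divided by its degrees of freedom was at least 49.8 for each pair.

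Genes with a mean FPKM of at least 0.5 over all libraries (11530) were tested with the legacy quasi-likelihood F test of edgeR 4.0.16 under R 4.3.3, after TMM scaling. Melatonin was compared with control without covariates, with Benjamini-Hochberg adjustment over all genes tested and a threshold of 0.05. Standard errors were taken as the absolute log2 fold change over the square root of F. The common biological coefficient of variation was 29.8%. The test was tested on simulated counts. Tables and plots were made with Python 3.11.15, pandas 2.3.3, NumPy 2.4.6, SciPy 1.17.1 and Matplotlib 3.10.9.

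The members and lists were chosen with earlier results of these data known. Genes are named with values if they are the up to 2 most abundant of a role group, have an unadjusted p under 0.05 or groups that do not overlap in FPKM, or belong to a list of textbook muscle channels. From the partner list, up to 2 per direction with the smallest unadjusted p under 0.05 are named. Some channel genes that enter the counts are not reported here by name. The rule then gave 20 channel and 2 partner genes. Alternatives were DESeq2 1.42.0, limma 3.58.1 on log2(FPKM + 1) and log2(FPKM + 0.1), other scalings, filters at 1 and 5 FPKM or none, the bias-adjusted quasi-likelihood test, the replicate number as a block, and leaving out libraries. The fits with no filter that leave out melatonin replicates 1, 3 or both were chosen after seeing the data.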

Additional observations from a re-analysis of the deposited data

Results flagged for a closer look

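Of 58 groups of 4 libraries, 2 for each of 29 expressed channel genes, 3 held a library far from the other 3, by the gap to its nearest neighbour divided by the whole range of the group, above Dixon's critical value for 4 samples. Chance flags about 1 in 20 such groups. SCN4A was high in control replicate 4 (gap 0.83 of the range, 41.1 FPKM against 24.5 to 27.3) and low in melatonin replicate 1 (0.868, 19.6 FPKM against 24.9 to 25.7). The rule was applied to FPKM only, and these 2 libraries stood less far apart in TMM-scaled CPM. There, control replicate 4 was at 280 against 166 to 208, and melatonin replicate 1 at 114 against 145 to 201. KCNN1 was high in melatonin replicate 4 (0.858, 2.09 FPKM against 0.173 to 0.444).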

How the results depend on the processing

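The count of expressed channel genes at an unadjusted p under 0.05, 3 in edgeR, beside 10.5% of all genes, changed with the setting. It was 0 of 7 tested with a filter at 5 FPKM (10% of all genes), 5 with no filter (7.7%), 5 in DESeq2 (12.4%), 6 without melatonin replicates 1 and 3 together (4.89%), and 2 to 10 with each library left out (6.02 to 19.1%). At an adjusted p DESeq2 called 1 channel gene and 81 of all genes, and edgeR 0. Partner genes at an unadjusted p under 0.05, 2 in edgeR, were 4 in DESeq2 and 1 to 11 with each library left out, the 11 without melatonin replicate 4, where 19.1% of all genes passed. Channel genes without overlap between groups were 0 in FPKM, 1 in TMM-scaled CPM and 0 to 6 in FPKM with each library left out, the 6 without melatonin replicate 4 (14.5% of all genes). Of all 85 genes with no filter, 12 fell to 7 without melatonin replicates 1 and 3.

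The labels do not say whether the replicate numbers pair the libraries, and correlations between libraries cannot settle it. Same-numbered libraries had correlations of their deviations from -0.006 to 0.159, with 2 of 4 pairs over 0.1, and 4 of 8 libraries correlated best with their own number. With the replicate block, 6 channel genes (KCNA7, KCNMA1, KCNK7, SCN4A and KCNMB4 among them) and 6 partner genes had an unadjusted p under 0.05, beside 10.8% of all genes, and 0 an adjusted p under 0.05.

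Among 397 single-gene alternatives, 19 reversed the sign and 14 of the 22 named genes had no reversal. Without melatonin replicates 1 and 3 the log2 fold change was -0.047 for CLCN7, 0.16 for KCNJ11, 0.50 for KCNN1 and 0.27 for KCNN3. With each library left out it ran from -0.068 to 0.077 for CLCN2, -0.54 to 0.0096 for KCNAB1, -0.20 to 0.030 for KCNE3, -1.72 to 0.42 for KCNN1, -0.24 to 0.20 for KCNN3 and -0.072 to 0.33 for KCNQ5. CLCN2 was at -0.00034 with upper-quartile scaling. In limma KCNE3 was at 0.0073 with a pseudocount of 1 and at 0.0091 with 0.1, and KCNAB1 at 0.024 with 0.1. The cause was not tested. Channel genes with few counts, such as KCNH3, are limited by depth.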

Other observations

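A further sodium channel beta subunit, SCN4B by its description, has no symbol in the gene table and so is not among the 85 genes. SCN4B (ENSSSCG00000029199, chromosome 9, 45451478 to 45476392) was measured at 65.0, 41.4, 29.2 and 34.9 FPKM in controls and 21.0, 25.0, 17.1 and 45.6 FPKM after melatonin. Melatonin replicates 1, 2 and 3 lay below every control and replicate 4 among the controls. Replicates 1 and 3 were the lowest libraries, and the fold change without them is not given. Means were 42.6 ± 15.7 and 27.2 ± 12.7 FPKM (SD, n = 4 each), and the log2 fold change was -0.66 ± 0.41 (SE; unadjusted p = 0.136, adjusted p = 0.567 in edgeR's quasi-likelihood test). Its neighbour SCN2B, 8.6 kb away, averaged 0.317 FPKM.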
